A study of Mus musculus with 54 samples.

Results

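The suprachiasmatic nucleus (SCN) was compared at midday and at midnight of a light/dark cycle, across every gene with reads. The SCN is the hypothalamic pacemaker that sets daily rhythms of physiology and behaviour. In its neurons the activators CLOCK and BMAL1 (encoded by *Arntl*) bind E-box elements and switch on the Per and Cry genes, whose proteins then block their own activators, while REV-ERB and ROR receptors act on *Arntl* in a second loop. SCN neurons fire faster by day than by night, mostly use GABA, and signal through peptides such as vasopressin, VIP, GRP and prokineticin 2. Midday is called ZT6, 6 hr after lights on, and midnight ZT18, 12 hr later and in darkness.

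The mice were males of the C3H/HeH strain with no genetic change or drug, aged 10 to 12 weeks and kept in 12 hr of light and 12 hr of darkness. Each replicate was 1 pool of SCN tissue from 5 mice, cut by laser-capture microdissection (LCM) from Nissl-stained sections, amplified from a small amount of RNA and sequenced in 3 lanes, which the count table holds as 1 column. The comparison used 6 of the 18 pools, 3 at ZT6 and 3 at ZT18 (18 of the 54 deposited lanes), named A, B and C within each timepoint. A pool averages its mice, so the spread between pools understates the spread between animals. Total counts were 19456681 to 24623369 at ZT6 and 15412981 to 31836018 at ZT18, where replicate C was the shallowest. Levels are given as CPM, the reads of a gene per 1000000 reads of its library after TMM scaling, which aligns most genes between libraries.

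A limit of the design applies to every result. In the study's principal component plot the libraries separated by timepoint and by sequencing batch, with ZT6 beside ZT10 and ZT18 beside ZT14. Which libraries shared a batch was not given in the sources used here. Midday against midnight and one set of libraries against the other therefore cannot be told apart in the difference between ZT6 and ZT18. The median difference between ZT10 and ZT14, 4 hr apart and measured in other pools, is therefore set beside that of each pathway or family list. Of the 117 called genes named below, 107 had the same direction there, beside 90.8% of all called and 69.8% of all tested genes. A shift that ZT6 shares with ZT10 and ZT18 with ZT14 cancels when the second difference is subtracted from the first.

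Of 30031 genes in the count table, 23627 had at least 1 read at ZT6 or ZT18 and 18941 were tested. Transcripts of 3921 genes differed between the timepoints at an adjusted p under 0.05 in edgeR's quasi-likelihood test (20.7%), with 1656 higher at ZT6 (8.74%) and 2265 higher at ZT18 (12%). These shares are the background for every gene group below. The difference was at least 1 on the log2 scale for 2608 of the called genes. The 3 values at ZT6 lay wholly above the 3 at ZT18 for 13% of tested genes and wholly below for 17.2%. The median log2 difference, ZT6 minus ZT18, was -0.18 over all tested genes.

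These counts take the spread of each gene from all 18 pools. With the 6 pools of ZT6 and ZT18 alone, 839 genes passed, 475 higher at ZT6 and 364 higher at ZT18, and 824 of them were among the 3921. Of 117 called genes named below, 83 passed in that fit too. The share of called genes that were higher at ZT6 was 42.2%, and it was 53.0% when libraries were scaled by their upper quartile, a scaling that moved the median of all genes up by 0.13. The normalized table that was deposited beside the counts gives back whole reads, and of genes with reads only 8.72% to 12.1% had identical reads in both tables at ZT6 and ZT10, against 92.7% to 94.2% at the other timepoints. Of 18539 genes tested in both tables, 3279 were called the same way (17.7%) and 66 in opposite ways, 47 of them pseudogenes.

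The period genes stood high at midday and *Arntl* stood high at midnight. Of 13 tested core clock genes 6 were higher at ZT6 and 1 at ZT18, and the median log2 difference was 0.43, against -0.23 between ZT10 and ZT14. *Per1*, a repressor of the loop that also responds to light, measured 50.6, 57.4 and 102 CPM at ZT6 and 8.80, 10.8 and 14.5 CPM at ZT18 in replicates A, B and C, a log2 difference of 2.63 ± 0.30 (SE, adjusted p = 2.6e-05). *Per2*, its close relative, measured 92.6, 84.8 and 192 CPM at ZT6 and 25.8, 26.7 and 30.9 CPM at ZT18, a log2 difference of 2.15 ± 0.29 (SE, adjusted p = 1.3e-04). For both genes the lowest ZT6 pool lay well above the highest ZT18 pool, and ZT6 replicate C was the highest of all. *Arntl*, which encodes the activator BMAL1, measured 21.9, 24.3 and 22.2 CPM at ZT6 and 51.1, 47.8 and 38.9 CPM at ZT18, a log2 difference of -1.01 ± 0.26 (SE, adjusted p = 0.011). All 3 of its ZT6 pools lay below all 3 at ZT18, although the call was lost with the 6 pools alone.

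The nuclear receptors of the second loop did not move as one. *Rora*, an activator of *Arntl*, measured 554, 643 and 465 CPM at ZT6 and 175, 155 and 139 CPM at ZT18, a log2 difference of 1.83 ± 0.19 (SE, adjusted p = 7.1e-06). *Nr1d2*, which encodes the repressor REV-ERBβ, measured 111, 122 and 202 CPM at ZT6 and 24.9, 30.9 and 71.7 CPM at ZT18, a log2 difference of 1.77 ± 0.32 (SE, adjusted p = 0.0011). Each of the pair kept its ZT6 pools above its ZT18 pools. *Nr1d1*, which encodes REV-ERBα, overlapped widely, with 254, 219 and 111 CPM at ZT6 and 206, 156 and 71.2 CPM at ZT18 (adjusted p = 0.69). *Rorb*, an SCN-rich ROR gene, measured 436, 558 and 447 CPM at ZT6 and 404, 382 and 359 CPM at ZT18 (adjusted p = 0.31). *Per3* measured 42.2, 81.4 and 126 CPM at ZT6 and 26.7, 24.9 and 46.9 CPM at ZT18, a log2 difference of 1.34 ± 0.37 (SE, adjusted p = 0.015), and the adjusted p was 0.094 without ZT6 replicate C, 0.063 without ZT18 replicate A and 0.067 without ZT18 replicate B. *Cry1*, a repressor partner of the Per proteins, gave a log2 difference of 0.80 ± 0.25 (SE, adjusted p = 0.034), with adjusted p of 0.19 without ZT6 replicate C, 0.12 without ZT18 replicate B and 0.064 without ZT18 replicate C. The lowest ZT6 pool of *Per3* lay below its highest ZT18 pool, and the calls of both genes were lost when single pools were left out. In edgeR no call was made for *Cry2* (-0.82 ± 0.30 SE, adjusted p = 0.062), for *Clock* (-0.58 ± 0.25 SE, adjusted p = 0.1) or for its relative *Npas2* (-0.63 ± 0.48 SE, adjusted p = 0.37). *Cry2* did pass without ZT18 replicate C (adjusted p = 0.0038) and among genes with at least 10 counts in every pool (adjusted p = 0.041), and *Clock* passed with recovered reads (adjusted p = 0.043).

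**Figure D1:**
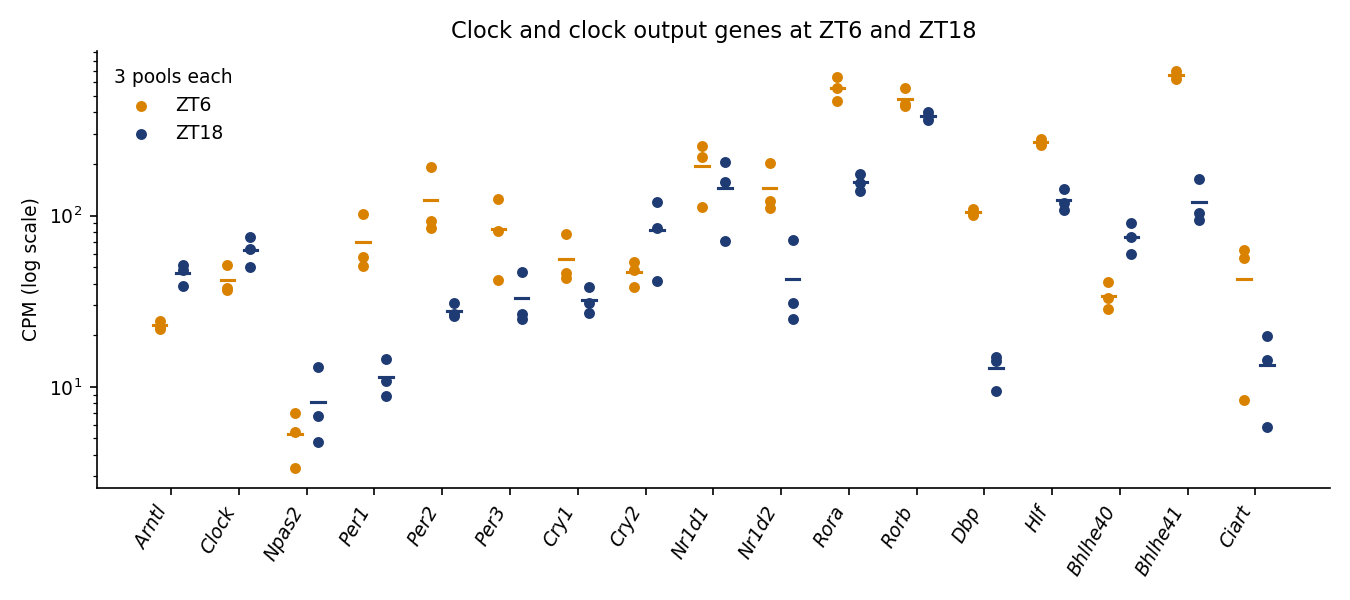
Level of 17 clock and clock output genes in each pool, in CPM on a log axis, with ZT6 in orange and ZT18 in blue; bars are means of 3 pools. *Per1*, *Per2*, *Dbp* and *Bhlhe41* show their 3 ZT6 pools far above their 3 ZT18 pools, whereas *Arntl* and *Bhlhe40* show the opposite order and *Nr1d1* overlaps.

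Transcription factors driven by the clock differed in both directions. Of 18 tested output and modifier genes 7 were higher at ZT6 and 4 at ZT18. The median between ZT10 and ZT14 was -0.27. Their ZT6 minus ZT18 median of -0.045 turned to 0.044 and 0.087 with size-factor and upper-quartile scaling. *Dbp*, a D-box activator, measured 100.2, 109.7 and 104 CPM at ZT6 and 14.9, 14.2 and 9.52 CPM at ZT18, a log2 difference of 3.02 ± 0.26 (SE, adjusted p = 1.4e-06). *Bhlhe41*, an E-box repressor also called Dec2, measured 628, 662 and 701 CPM at ZT6 and 94.0, 104 and 163 CPM at ZT18, a log2 difference of 2.47 ± 0.29 (SE, adjusted p = 2.9e-05). Its relative *Bhlhe40* moved the other way, with 32.8, 41.1 and 28.3 CPM at ZT6 and 89.9, 74.9 and 59.4 CPM at ZT18, a log2 difference of -1.13 ± 0.26 (SE, adjusted p = 0.005). The 3 genes each had timepoints that did not overlap. *Hlf*, another D-box factor, gave a log2 difference of 1.12 ± 0.14 (SE, adjusted p = 7.0e-05). *Csnk1e*, a kinase that marks PER proteins for loss, was higher at ZT6 by 0.94 ± 0.22 (SE, adjusted p = 0.0057). *Wee1*, a cell-cycle kinase with clock control, and *Tsc22d3*, a glucocorticoid-induced regulator, were higher at ZT18, with ZT6 minus ZT18 at -2.06 ± 0.57 (SE, adjusted p = 0.016) and -1.14 ± 0.22 (SE, adjusted p = 0.0019). *Ciart*, a repressor of the loop, was uneven at ZT6 with 63.2, 56.7 and 8.33 CPM against 19.9, 14.4 and 5.80 CPM at ZT18 (adjusted p = 0.026), and its adjusted p was 0.096 without ZT6 replicate A, 0.086 without ZT6 replicate B, 0.064 without ZT18 replicate B and 0.075 without ZT18 replicate C.

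Promoter stretches of genes from these groups are printed to show the elements by which the clock is known to reach them, with the element in capitals. They come from RefSeq (GRCm38.p6) and run 5′ to 3′ on the gene's strand over 90 bases within the 250 before an annotated start. Only promoters that held the element are printed. For *Per1* the stretch lies inside the gene, which begins at chr11:69095217, and not before its first start. The element was the E-box CACGTG in the first 5 and the D-box TTATGTAA in *Per3*, where DBP and HLF can bind. The places are chr6:99726480-99726569, minus strand for *Prok2*, chr2:130582680-130582769, minus strand for *Avp*, chr11:69098741-69098830, plus strand for *Per1*, chr6:145865526-145865615, minus strand for *Bhlhe41*, chr3:95882261-95882350, minus strand for *Ciart* and chr4:151044799-151044888, minus strand for *Per3*.
Prok2: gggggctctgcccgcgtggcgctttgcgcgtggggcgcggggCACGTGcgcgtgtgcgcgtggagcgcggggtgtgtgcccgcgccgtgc
Avp: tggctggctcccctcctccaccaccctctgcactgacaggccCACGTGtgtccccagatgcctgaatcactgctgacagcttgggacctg
Per1: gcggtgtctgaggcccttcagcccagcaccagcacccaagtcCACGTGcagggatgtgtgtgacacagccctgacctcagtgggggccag
Bhlhe41: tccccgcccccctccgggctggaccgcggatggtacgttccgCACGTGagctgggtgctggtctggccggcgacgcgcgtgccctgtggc
Ciart: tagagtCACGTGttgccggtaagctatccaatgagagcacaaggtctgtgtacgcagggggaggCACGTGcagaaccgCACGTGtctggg
Per3: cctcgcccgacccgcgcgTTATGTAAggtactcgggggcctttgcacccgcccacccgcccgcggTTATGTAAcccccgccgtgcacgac
*Ciart* held 3 E-boxes and *Per3* held 2 D-boxes, and each other stretch held 1 element. Shares were taken over tested genes matched to promoters, and a gene counted if at least 1 of its promoters held the element. By this count CACGTG stood in 9.18% of 12419 genes, in 10.4% of 1119 higher at ZT6 and in 9.80% of 1602 higher at ZT18. Genes with more promoters have more chances of a match, and over 32851 single promoters the share was 6.02%. The D-box TTATGTAA or TTACGTAA, searched on both strands, stood in 0.862%, 0.715% and 0.811%. The cyclic AMP element TGACGTCA, at which activity reaches genes such as *Per1*, stood in 2.73%, 4.29% and 2.62%. These are letter matches and not measured binding.

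Peptide genes of the SCN were higher at midday wherever they were called. Of 15 tested neuropeptides 6 were higher at ZT6 and 0 at ZT18, with a median of 0.59 (0.49 between ZT10 and ZT14). *Prok2*, a secreted output signal for locomotor rhythms, measured 303, 286 and 122 CPM at ZT6 and 1.79, 3.69 and 1.28 CPM at ZT18, a log2 difference of 6.68 ± 0.58 (SE, adjusted p = 1.4e-06). *Avp*, the vasopressin precursor of the SCN shell, measured 478, 455 and 429.6 CPM at ZT6 and 21.9, 23.6 and 28.9 CPM at ZT18, a log2 difference of 4.20 ± 0.34 (SE, adjusted p = 7.3e-07). Both fell to a small part of their midday level in every midnight pool. *Grp*, a peptide of the light-receiving core, measured 394, 379.9 and 356 CPM at ZT6 and 153, 136 and 74.8 CPM at ZT18, a log2 difference of 1.63 ± 0.28 (SE, adjusted p = 6.6e-04). *Vip*, which synchronises SCN neurons, measured 2341, 2697 and 3231 CPM at ZT6 and 1137, 1129 and 1741 CPM at ZT18, a log2 difference of 1.04 ± 0.25 (SE, adjusted p = 0.007). *Nms*, a peptide of a broad set of SCN neurons, gave a log2 difference of 1.08 ± 0.20 (SE, adjusted p = 0.0011), and *C1ql3*, a secreted synaptic organiser, gave a log2 difference of 2.77 ± 0.21 (SE, adjusted p = 3.3e-07). None of these 6 genes had overlapping timepoints. In pooled tissue, fewer cells of a type and less RNA per cell cannot be told apart.

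Genes that make and pack peptides were likewise higher at midday where called. Of 12 tested 5 were higher at ZT6 and 0 at ZT18 (median 0.43, and 0.45 between ZT10 and ZT14). *Vgf*, which encodes a secreted precursor tied to neuronal activity, measured 179, 223 and 199.7 CPM at ZT6 and 29.7, 24.5 and 32.3 CPM at ZT18, a log2 difference of 2.80 ± 0.27 (SE, adjusted p = 4.9e-06). *Pcsk1n*, an inhibitor of the prohormone convertase PC1, gave a log2 difference of 1.46 ± 0.16 (SE, adjusted p = 1.6e-05). *Pam*, the enzyme that amidates peptides, gave a log2 difference of 1.5 ± 0.34 (SE, adjusted p = 0.0052), and *Chga*, a granule protein, gave a log2 difference of 1.23 ± 0.32 (SE, adjusted p = 0.012).

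Receptors for SCN peptides and for inputs to the nucleus were mostly not called, and those called were higher at midnight. Of 20 tested 0 were higher at ZT6, 6 at ZT18 and 14 were not called, with a median of -0.62 (-0.77 between ZT10 and ZT14), and 4 of the 6 were called in both tables. *Prokr2*, the receptor for prokineticin 2, measured 136, 144 and 145 CPM at ZT6 and 345, 342 and 294 CPM at ZT18, a log2 difference of -1.21 ± 0.19 (SE, adjusted p = 4.7e-04). Its order was thus opposite to that of its ligand in every pool. *Oprl1*, the nociceptin receptor, measured 46.8, 66.6 and 74.3 CPM at ZT6 and 159, 137 and 99.9 CPM at ZT18, a log2 difference of -1.07 ± 0.21 (SE, adjusted p = 0.0019). *Npy2r*, a receptor for neuropeptide Y from the thalamus, was nearly without reads at midday, with 0, 0.0947 and 0 CPM at ZT6 and 5.09, 5.33 and 3.84 CPM at ZT18 (adjusted p = 4.7e-04).

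**Figure D2:**
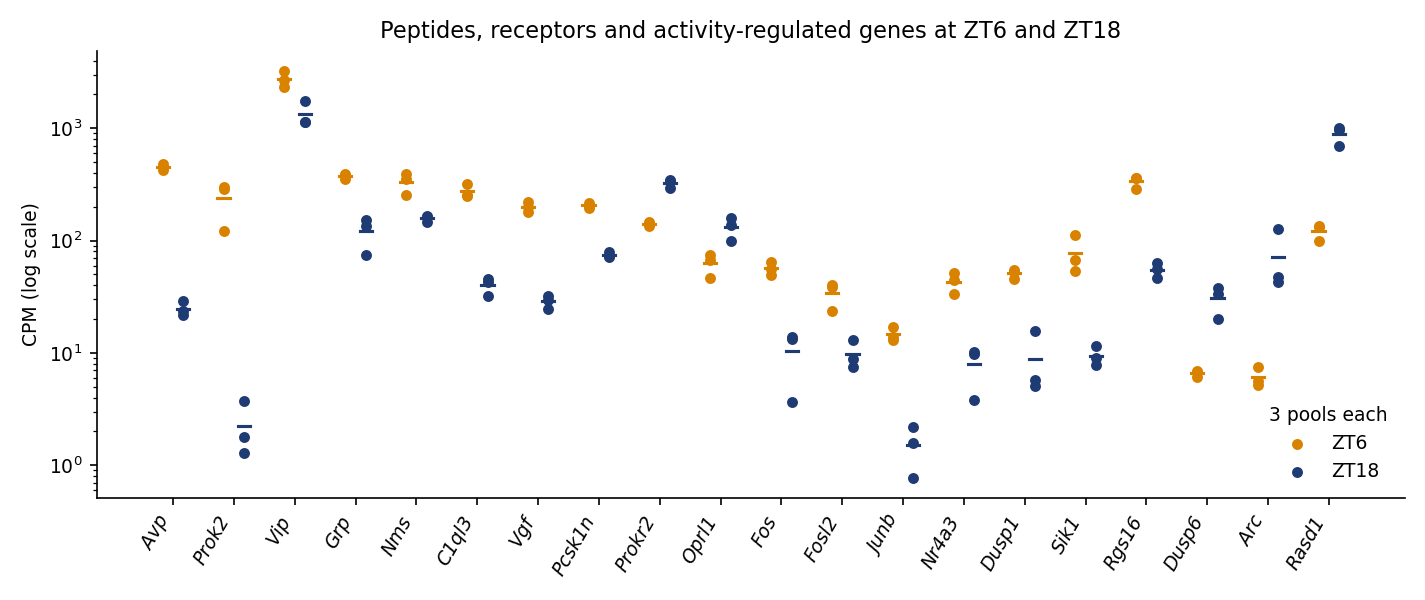
Level of 20 peptide, receptor and activity-regulated genes in each pool, in CPM on a log axis, with ZT6 in orange and ZT18 in blue; bars are means of 3 pools. *Prok2* and *Avp* stand far higher at ZT6, *Prokr2* and *Oprl1* higher at ZT18, and *Arc*, *Dusp6* and *Rasd1* are higher at ZT18 while *Fos*, *Junb* and *Sik1* are higher at ZT6.

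Genes switched on by neuronal activity were split between the timepoints. Of 29 tested 10 were higher at ZT6 and 5 at ZT18, with a median of 1.10 (-0.23 between ZT10 and ZT14). *Fos*, the standard early marker of activity, measured 64.2, 49.7 and 56.2 CPM at ZT6 and 14.0, 13.3 and 3.66 CPM at ZT18, a log2 difference of 2.45 ± 0.52 (SE, adjusted p = 0.0033). *Junb*, a partner of *Fos*, measured 16.9, 13.9 and 13 CPM at ZT6 and 1.57, 0.771 and 2.20 CPM at ZT18, a log2 difference of 3.28 ± 0.55 (SE, adjusted p = 6.1e-04). *Sik1*, a kinase that restrains light-driven CREB signalling, measured 53.7, 67.8 and 112 CPM at ZT6 and 8.99, 7.81 and 11.5 CPM at ZT18, a log2 difference of 3.05 ± 0.31 (SE, adjusted p = 6.8e-06). These 3 were high in every midday pool. *Dusp1* and *Dusp4*, phosphatases that switch off MAP kinases, were also higher at ZT6, by 2.53 ± 0.37 (SE, adjusted p = 2.1e-04) and 4.56 ± 0.65 (SE, adjusted p = 1.8e-04). *Nr4a3*, an orphan receptor, gave a log2 difference of 2.46 ± 0.37 (SE, adjusted p = 2.6e-04). *Jun* gave a log2 difference of 1.54 ± 0.36 (SE, adjusted p = 0.0062) and *Crem*, a cyclic AMP-responsive factor, a log2 difference of 1.10 ± 0.23 (SE, adjusted p = 0.0032).

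*Arc*, which acts at synapses in receptor turnover, was among the genes with the opposite order, with 7.55, 5.21 and 5.58 CPM at ZT6 and 43.1, 47.2 and 126 CPM at ZT18, a log2 difference of -3.55 ± 0.55 (SE, adjusted p = 3.1e-04). *Dusp6*, a phosphatase of ERK, measured 6.94, 6.77 and 6.06 CPM at ZT6 and 38.1, 33.4 and 20.2 CPM at ZT18, a log2 difference of -2.21 ± 0.30 (SE, adjusted p = 1.1e-04). *Rasd1*, a Ras-like protein known from light-induced clock shifts, measured 135, 131 and 98.6 CPM at ZT6 and 1000, 973 and 694 CPM at ZT18, a log2 difference of -2.87 ± 0.65 (SE, adjusted p = 0.0053). The 3 genes were higher in every midnight pool than in any midday pool. The ZT10 minus ZT14 differences were -4.04 for *Arc*, -2.54 for *Dusp6* and -1.50 for *Rasd1*.

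Regulators of G-protein signalling (RGS proteins), which shorten receptor signals, mostly stood higher at midnight where called. Of 19 tested 2 were higher at ZT6 and 6 at ZT18 (median -0.45, and -0.48 between ZT10 and ZT14). *Rgs16*, a clock-controlled member of the SCN shell, was an exception with 287, 362 and 360 CPM at ZT6 and 62.6, 55.4 and 46.7 CPM at ZT18, a log2 difference of 2.61 ± 0.23 (SE, adjusted p = 1.4e-06). Its timepoints lay far apart. *Rgs5* and *Rgs14* were higher at ZT18, with ZT6 minus ZT18 at -1.18 ± 0.27 (SE, adjusted p = 0.0049) and -3.11 ± 0.69 (SE, adjusted p = 0.0043). Of 30 tested adenylyl cyclases and phosphodiesterases, which make and break cyclic nucleotides, 1 was higher at ZT6 and 7 at ZT18 (median -0.59, and -0.78 between ZT10 and ZT14). *Pde7b*, a cyclic AMP phosphodiesterase, gave a log2 difference of -1.49 ± 0.23 (SE, adjusted p = 3.2e-04).

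GABA is the main transmitter of the SCN, and 7 of 23 tested GABA genes were higher at ZT6 and 1 at ZT18. The median of the list was -0.025 but 0.059 and 0.10 under the other scalings and 0.15 with recovered reads, beside -0.24 between ZT10 and ZT14. *Slc32a1*, the vesicle transporter for GABA, measured 69.5, 68.3 and 167 CPM at ZT6 and 31.2, 23.8 and 30.0 CPM at ZT18, a log2 difference of 1.84 ± 0.31 (SE, adjusted p = 6.9e-04). *Slc12a5*, the transporter KCC2 that keeps chloride low in neurons, measured 109, 119 and 122 CPM at ZT6 and 43.6, 39.1 and 58.5 CPM at ZT18, a log2 difference of 1.31 ± 0.21 (SE, adjusted p = 3.9e-04). Both pairs of timepoints were apart. *Gad2*, a GABA-making enzyme, and *Gabbr1*, a GABA-B receptor subunit, were higher at ZT6 by 0.80 ± 0.16 (SE, adjusted p = 0.0018) and 1.11 ± 0.19 (SE, adjusted p = 5.8e-04). *Gabra4*, a subunit of GABA-A receptors, was the member higher at ZT18, with ZT6 minus ZT18 at -1.94 ± 0.39 (SE, adjusted p = 0.0023).

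Potassium channel genes gave calls at about the rate of all genes. Of 82 tested potassium channel genes 4 were higher at ZT6 and 10 at ZT18 (median -0.28, and -0.74 between ZT10 and ZT14). *Kcnc2*, a subunit of the fast channels that let neurons fire at high rates, measured 79.2, 105 and 128 CPM at ZT6 and 48.0, 39.6 and 34.8 CPM at ZT18, a log2 difference of 1.35 ± 0.22 (SE, adjusted p = 4.6e-04). *Kcnn2*, a calcium-activated channel, was higher at ZT6 by 1.30 ± 0.31 (SE, adjusted p = 0.0072), and *Kcnab1*, an auxiliary subunit, was higher at ZT18, with ZT6 minus ZT18 at -2.11 ± 0.56 (SE, adjusted p = 0.013). Of 17 calcium channel subunits 4 were higher at ZT6 and 2 at ZT18, and the medians differed in sign between the pairs of timepoints (0.099, but -0.46 between ZT10 and ZT14). *Cacna1g*, a T-type channel, measured 50.4, 70.5 and 81.4 CPM at ZT6 and 19.4, 25.1 and 28.1 CPM at ZT18, a log2 difference of 1.48 ± 0.25 (SE, adjusted p = 6.6e-04), and *Cacnb2*, an auxiliary subunit, gave a log2 difference of 1.72 ± 0.43 (SE, adjusted p = 0.01). Of 17 sodium, HCN and NALCN channel genes 1 was higher at each timepoint, and here too the medians differed in sign (0.16, but -0.33 between ZT10 and ZT14). Of 17 ionotropic glutamate receptors 2 were higher at ZT6 and 2 at ZT18 (median -0.048, and -0.94 between ZT10 and ZT14), among them the AMPA subunit gene *Gria3* (-1.36 ± 0.31 SE, adjusted p = 0.0052). Of 30 synaptic vesicle genes 3 were higher at ZT6 and 7 at ZT18 (median -0.35, and -0.73 between ZT10 and ZT14). *Nsf*, the ATPase that recycles fusion proteins, and *Sv2b*, a vesicle glycoprotein, were higher at ZT18, with ZT6 minus ZT18 at -0.92 ± 0.22 (SE, adjusted p = 0.0071) and -1.88 ± 0.35 (SE, adjusted p = 0.0014), while *Vamp2*, the fusion protein of synaptic vesicles, was higher at ZT6 by 0.71 ± 0.14 (SE, adjusted p = 0.002).

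Ribosomal protein genes had the largest share of calls among the lists shown in the plot of list shares. Of 82 tested genes for cytosolic ribosomal proteins 58 were higher at ZT6 and 1 at ZT18, with a median of 0.97, and 54 of the 58 were called the same way in both tables. *Rpl30*, of the large subunit, measured 363, 408 and 369 CPM at ZT6 and 99.4, 101 and 117 CPM at ZT18, a log2 difference of 1.85 ± 0.17 (SE, adjusted p = 2.8e-06). Its timepoints did not overlap. *Rpl7l1*, a ribosome assembly protein counted in the list, was the member higher at ZT18 (-1.06 ± 0.16 SE, adjusted p = 3.1e-04). The median between ZT10 and ZT14 was 1.38, so the same order held between pools only 4 hr apart. *Rps27* gave 2.47 in the count table but -7.17 with recovered reads, and many ribosomal genes have near-identical pseudogene copies between which reads can be divided.

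Nuclear genes for respiratory complexes and the ATP synthase showed the same order in part, with 35 of 81 tested higher at ZT6 and 4 at ZT18 (median 0.52, and 0.77 between ZT10 and ZT14). *Cox5a*, a subunit of cytochrome oxidase, measured 186, 120.0 and 101 CPM at ZT6 and 34.6, 24.6 and 30.0 CPM at ZT18, a log2 difference of 2.19 ± 0.27 (SE, adjusted p = 6.2e-05). *Cox7c*, another subunit of that enzyme, gave a log2 difference of 1.43 ± 0.17 (SE, adjusted p = 4.5e-05). *Sdha*, of succinate dehydrogenase, was higher at ZT18 with 374, 396 and 261 CPM at ZT6 and 837, 806 and 597 CPM at ZT18, a log2 difference of -1.12 ± 0.18 (SE, adjusted p = 4.7e-04). The count table held only 8 of the 13 chain genes in mitochondrial DNA. Of these 8, 5 were higher at ZT6 and 0 at ZT18 (median 0.84, and 0.26 between ZT10 and ZT14), among them *mt-Nd4l* (1.38 ± 0.30 SE, adjusted p = 0.004), whose recovered reads gave -0.18. With recovered reads all 13 were tested, and 7 were higher at ZT6 and 0 at ZT18. Mitochondrial ribosomal proteins had 15 of 74 genes higher at ZT6 and 3 at ZT18, with a median of 0.04 and one of 0.49 between ZT10 and ZT14.

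Splicing genes had 22 of 64 members higher at ZT6 and 8 at ZT18 (median 0.36, and 0.35 between ZT10 and ZT14). *Hnrnpa1*, an RNA-binding splicing repressor, measured 151, 167 and 225 CPM at ZT6 and 43.2, 46 and 62.6 CPM at ZT18, a log2 difference of 1.84 ± 0.19 (SE, adjusted p = 1.0e-05). *Hnrnpd* and *Snrpf*, a Sm protein of the spliceosome, were higher at ZT6 by 1.85 ± 0.25 (SE, adjusted p = 1.1e-04) and 1.55 ± 0.21 (SE, adjusted p = 1.0e-04). *Prpf6*, of the U5 particle, and *Srsf7*, an SR splicing factor, were higher at ZT18, with ZT6 minus ZT18 at -1.83 ± 0.25 (SE, adjusted p = 1.3e-04) and -1.02 ± 0.17 (SE, adjusted p = 5.1e-04). Of 37 proteasome genes 9 were higher at ZT6 and 3 at ZT18, with a median of 0.029 that was -0.012 with recovered reads and 0.44 between ZT10 and ZT14. *Psma6*, of the core particle, was higher at ZT6 (0.70 ± 0.14 SE, adjusted p = 0.0028) and *Psmd2*, of the cap, at ZT18 (-1.17 ± 0.25 SE, adjusted p = 0.0033). Translation factors, with 7 of 60 higher at each timepoint, showed no side (median 0.031, and 0.20 between ZT10 and ZT14).

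**Figure D3:**
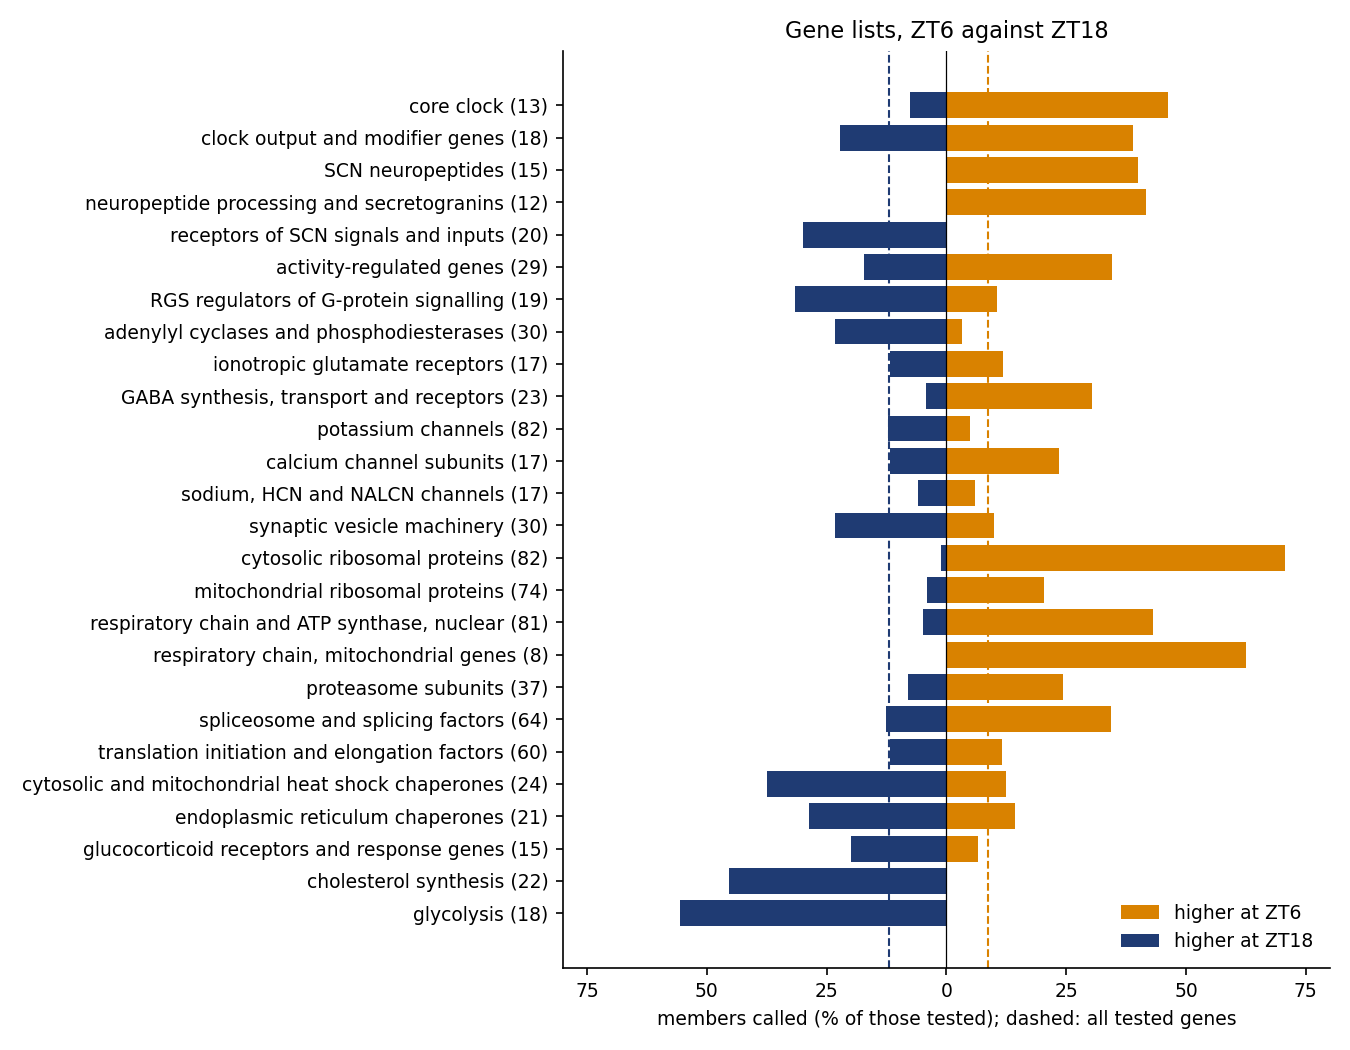
Share of tested members of 26 gene lists that were called higher at ZT6 (orange, to the right) or higher at ZT18 (blue, to the left), in percent, with the number tested in brackets. Dashed lines mark the shares among all tested genes, 8.74% and 12%. Cytosolic ribosomal proteins extend farthest to the right and glycolysis farthest to the left.

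Among protein-coding genes of 5 CPM or more, those with the least exon sequence stood higher at midday. Exon length here joins all annotated exons of a gene and can exceed that of a single transcript. The 187 genes with up to 1 kb of exon had a median log2 difference of 0.65 and 44.4% were called higher at ZT6. The 4230 genes of 4 to 8 kb had a median of -0.25, and 20.3% were called higher at ZT18. The same bins gave 0.85 and -0.26 between ZT10 and ZT14. The 2202 genes over 8 kb had a median of -0.056, and of -0.41 between ZT10 and ZT14. The 994 genes of 1 to 2 kb had a median of 0.11, and 19.3% were called higher at ZT6. In the list of cytosolic ribosomal proteins the median exon length was 1776 bases, which falls in that bin. The part of length in their difference was not tested. With all tested genes, low counts included, the median of the shortest bin was 0 in the count table and -1.76 with recovered reads. With at least 10 counts in every pool it was 0.48 in the count table but -0.22 with recovered reads.

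**Figure D4:**
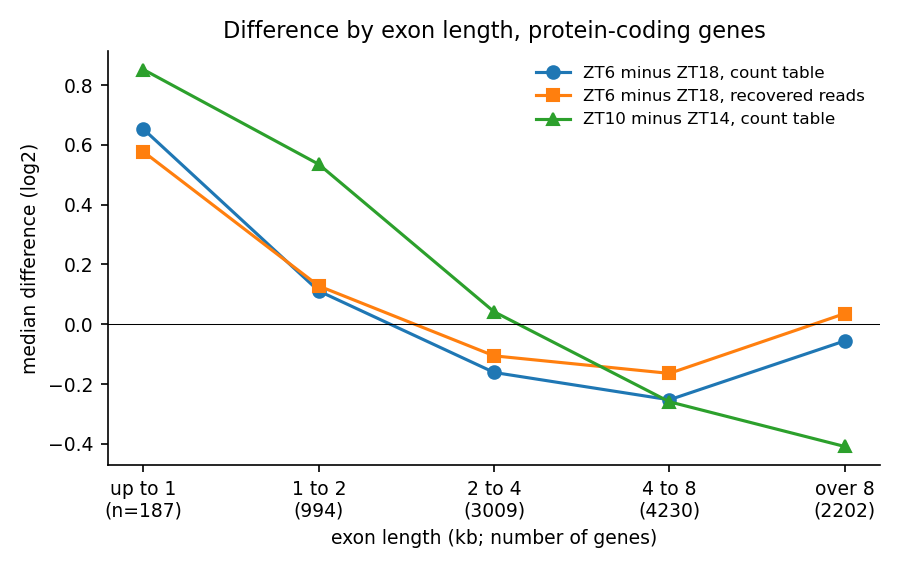
Median log2 difference of protein-coding genes of 5 CPM or more in 5 bins of exon length, for ZT6 minus ZT18 in the count table (circles) and with recovered reads (squares) and for ZT10 minus ZT14 (triangles). The shortest bin is the highest in all 3 lines, at 0.65, 0.58 and 0.85.

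Enzymes of glycolysis were higher at midnight wherever they were called. Of 18 tested 0 were higher at ZT6 and 10 at ZT18, with a median of -0.98 (-0.62 between ZT10 and ZT14). *Pkm*, the pyruvate kinase of brain and muscle, measured 974, 859 and 535 CPM at ZT6 and 2237, 1989 and 1228 CPM at ZT18, a log2 difference of -1.20 ± 0.24 (SE, adjusted p = 0.002). *Hk1*, the hexokinase that opens the pathway, measured 93.3, 77.8 and 54.1 CPM at ZT6 and 332, 272 and 153 CPM at ZT18, a log2 difference of -1.75 ± 0.39 (SE, adjusted p = 0.0049). *Pfkm*, a phosphofructokinase, measured 200.4, 158 and 170.2 CPM at ZT6 and 433, 386 and 301 CPM at ZT18, a log2 difference of -1.09 ± 0.17 (SE, adjusted p = 3.6e-04). In these 3 genes every midnight pool lay above every midday pool, as in 9 of the 18 tested (17.2% among all tested genes). The summed list overlapped, with 8625 CPM in ZT6 replicate A and 8535 CPM in ZT18 replicate C. *Eno2*, the neuronal enolase, gave a log2 difference of -1.27 ± 0.25 (SE, adjusted p = 0.0018). Cholesterol synthesis showed the same order, with 0 of 22 genes higher at ZT6 and 10 at ZT18 (median -0.80, and -0.50 between ZT10 and ZT14). *Sqle*, squalene epoxidase, measured 104, 61.4 and 68.9 CPM at ZT6 and 202, 188 and 221 CPM at ZT18, a log2 difference of -1.38 ± 0.33 (SE, adjusted p = 0.0072). *Hmgcs1*, an early enzyme of the pathway, gave a log2 difference of -0.81 ± 0.18 (SE, adjusted p = 0.0042).

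Heat shock chaperones and their partners had 3 of 24 members higher at ZT6 and 9 at ZT18 (median -0.45, and -0.27 between ZT10 and ZT14). *Stip1*, which joins HSP70 to HSP90, measured 162, 126 and 77.9 CPM at ZT6 and 542, 442 and 337 CPM at ZT18, a log2 difference of -1.85 ± 0.22 (SE, adjusted p = 3.5e-05). *Dnajb1*, an HSP40 protein, measured 90.7, 72.5 and 80.8 CPM at ZT6 and 264, 225 and 189 CPM at ZT18, a log2 difference of -1.47 ± 0.21 (SE, adjusted p = 1.4e-04). Both had every midnight pool above every midday pool. *Hspa4*, a relative of HSP70, was higher at ZT6 (1.01 ± 0.18 SE, adjusted p = 9.4e-04). In the endoplasmic reticulum 3 of 21 chaperone genes were higher at ZT6 and 6 at ZT18, and their median of -0.0022 was 0.075 to 0.18 under other scalings and with recovered reads, beside -0.0010 between ZT10 and ZT14. *Hyou1* and *Pdia4* were higher at ZT18, with ZT6 minus ZT18 at -1.76 ± 0.20 (SE, adjusted p = 2.4e-05) and -1.56 ± 0.20 (SE, adjusted p = 8.4e-05), and *Xbp1*, a factor of the unfolded protein response, was higher at ZT6 by 1.55 ± 0.24 (SE, adjusted p = 3.8e-04).

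The cold-inducible RNA-binding proteins, known to be induced when temperature falls, were 2 of 2 higher at ZT6 (median 1.07, and 1.15 between ZT10 and ZT14). *Cirbp* measured 637, 483 and 400.3 CPM at ZT6 and 263, 300.5 and 166 CPM at ZT18, a log2 difference of 1.06 ± 0.25 (SE, adjusted p = 0.0063). *Rbm3* measured 41.1, 28.7 and 48.7 CPM at ZT6 and 10.8, 18.9 and 26.4 CPM at ZT18, a log2 difference of 1.09 ± 0.29 (SE, adjusted p = 0.013), and its adjusted p was 0.053 without ZT6 replicate C and 0.057 without ZT18 replicate A. The timepoints of both genes did not overlap. Of 15 glucocorticoid receptor and response genes 1 was higher at ZT6 and 3 at ZT18 (median -0.33, and -0.44 between ZT10 and ZT14). *Mt2*, a metallothionein, was the member higher at ZT6 (1.24 ± 0.21 SE, adjusted p = 7.6e-04). Of the 10 reference genes that the study used for PCR, 9 were tested, all but *Snrpn*. None of the 9 was called in edgeR, 0 had an unadjusted p under 0.05 and DESeq2 called 0.

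The extremes of the comparison were taken by a fixed rule among called genes of at least 5 CPM. The rule also required that the 3 and 3 values did not overlap and that recovered reads gave a call in the same direction. Beside *Prok2*, *Avp*, *Junb* and *Sik1*, the 10 largest differences towards ZT6 held *Rasl11b*, a Ras-like GTPase, with 187, 231 and 251 CPM at ZT6 and 20.7, 29.4 and 19.5 CPM at ZT18, a log2 difference of 3.26 ± 0.25 (SE, adjusted p = 2.9e-07). *Nnmt*, a methyltransferase of nicotinamide, measured 24.6, 48.9 and 31.1 CPM at ZT6 and 1.60, 4.08 and 4.58 CPM at ZT18, a log2 difference of 3.36 ± 0.40 (SE, adjusted p = 3.5e-05). *Creb3l1*, a membrane-bound transcription factor of secretory cells, measured 73.1, 85.6 and 46.8 CPM at ZT6 and 11.3, 13.3 and 0.366 CPM at ZT18, a log2 difference of 3.02 ± 0.63 (SE, adjusted p = 0.0031). Their midday pools were all above their midnight pools, as the rule required. *Podxl2*, a membrane mucin, gave a log2 difference of 3.28 ± 0.62 (SE, adjusted p = 0.0014), with ZT6 replicate C at 53.9 CPM far above its fellows. *Gm17494* and *Gm12843*, predicted genes, gave 5.88 ± 0.61 (SE, adjusted p = 8.6e-06) and 3.66 ± 0.82 (SE, adjusted p = 0.0046). With recovered reads the difference of *Gm17494*, which overlaps another gene, was only 2.76 (adjusted p = 0.037), and that of *Nnmt* was 2.67.

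The 10 largest differences towards ZT18 were of another kind, since these genes were close to absent at midday. *Gm10722*, *Gm10801* and *Gm11168* had no reads at ZT6, against 27.5, 116 and 10.2 CPM, 27.1, 101 and 11.5 CPM and 17.8, 78.9 and 9.22 CPM at ZT18. With 3 counts per library as the floor, they were at least 370.3-fold, 337-fold and 256-fold higher at ZT18 over the mean of 3 pools, and without ZT18 replicate B at least 137-fold, 139.9-fold and 97.9-fold. *Gm10800* and *Gm10719* had 0, 0.0947 and 0.0473 CPM and 0.0434, 0 and 0 CPM at ZT6 and 218, 863 and 96.7 CPM and 8.41, 30.2 and 3.17 CPM at ZT18. These are predicted genes on chromosomes 2 and 9, and all 5 varied several-fold among the ZT18 pools, with replicate B the highest. Between ZT10 and ZT14 their log2 differences had the opposite sign, at 3.30 for *Gm10722*, 2.29 for *Gm10801*, 2.13 for *Gm11168*, 3.30 for *Gm10800* and 2.80 for *Gm10719*. For all 5 the SD at ZT10 exceeded the mean, so the opposite sign is uncertain. The ZT10 means were 2.94 ± 5.10 CPM for *Gm10722* and 18.0 ± 31.2 CPM for *Gm10800* (SD, n = 3).

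*Gstp1*, a glutathione transferase, measured 0.260, 0.284 and 0.142 CPM at ZT6 and 338, 298 and 253 CPM at ZT18, a log2 difference of -10.30 ± 0.28 (SE, adjusted p = 8.5e-14). The size rests on 3 to 6 reads in each ZT6 pool, and recovered reads gave -15.84. The gene lies within a run of 14 neighbouring genes on chromosome 19 whose median level was 0.230 CPM at ZT6 and 0.247 CPM at ZT10 but 22.9 CPM at ZT18 and 16.8 CPM at ZT14. *Pramef8* (0, 0.0474 and 0.0473 CPM at ZT6, 32.0, 39.6 and 35.6 CPM at ZT18) lay in a run of 5 genes at chr4:143242024-143421091 (GRCm38). *Myadm*, a membrane protein, lay in a run of 3 genes on chromosome 7 and measured 0.130, 0.0474 and 0.189 CPM at ZT6 and 38.7, 38.9 and 37.0 CPM at ZT18. In these 3 runs 19 of 22 genes were called. The rule that named these genes required a call in the same direction with recovered reads, which gave -9.86 for *Myadm* against -8.23 in the count table. A run was defined as at least 3 neighbouring tested genes. Each had to be lower by at least 3 on the log2 scale at ZT6 than at ZT18 and at ZT10 than at ZT14. The sharing with ZT10 was set by this definition, and the share of calls was raised by it. Why the runs were low at ZT6 and ZT10 was not tested.

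Among genes with at most 3 reads in every pool of one timepoint, *Gm10722* and *Gm10800* were among the leading ones low at midday. At midnight they were *Gm8973*, *Fam181a* and *Krt18*. *Gm8973* gave 7.34 in the count table and -0.12 with recovered reads, so the tables did not share the difference. *Fam181a* measured 6.55, 8.10 and 2.60 CPM at ZT6 and 0, 0.0642 and 0 CPM at ZT18 (adjusted p = 0.0012). *Krt18*, an epithelial keratin, was seen in ZT6 pools A and B, with 3.64, 10.6 and 0 CPM at ZT6 and 0.0640, 0 and 0 CPM at ZT18 (adjusted p = 0.028), and its adjusted p was 0.076 without ZT6 replicate B, 0.061 without ZT18 replicate A, 0.091 without ZT18 replicate B and 0.062 without ZT18 replicate C.

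Markers of cell types moved with the timepoints. All 10 SCN markers had reads in every pool, and their summed level was 5430.1 to 6059 CPM at ZT6 and 2412 to 2949 CPM at ZT18. Of these, 7 were higher at ZT6 and 0 at ZT18. They include peptides described above, but *Six3*, a developmental transcription factor, measured 313, 327 and 269.9 CPM at ZT6 and 79.7, 69.5 and 74.7 CPM at ZT18, a log2 difference of 2.02 ± 0.19 (SE, adjusted p = 3.6e-06). Oligodendrocyte markers summed to 1379.7 to 3179 CPM at ZT6 and 5158 to 6172 CPM at ZT18, with 1 of 10 higher at ZT6 and 5 at ZT18. *Mbp*, the myelin basic protein, measured 1690.2, 624 and 347 CPM at ZT6 and 3811, 3297 and 3446 CPM at ZT18, a log2 difference of -1.99 ± 0.47 (SE, adjusted p = 0.0067), whereas *Sox10*, the lineage's transcription factor, was higher at ZT6 by 1.47 ± 0.38 (SE, adjusted p = 0.012) with an adjusted p of 0.057 without ZT6 replicate A. Astrocyte markers summed to 2965 to 3186 and 4190.4 to 4589 CPM, with 1 of 10 higher at ZT6 and 4 at ZT18. *Gfap*, the astrocyte filament, gave a log2 difference of -1.95 ± 0.38 (SE, adjusted p = 0.0018), and *Glul*, glutamine synthetase, a log2 difference of -1.07 ± 0.18 (SE, adjusted p = 5.4e-04). Endothelial markers summed to 162 to 216 and 252 to 256 CPM, with 0 and 4 of 10, among them the tight junction gene *Cldn5* (-1.39 ± 0.30 SE, adjusted p = 0.0039). The sums of the oligodendrocyte, astrocyte and endothelial lists thus lay higher in every midnight pool than in any midday pool and that of the SCN list lower, while microglial markers overlapped, with sums of 117 to 283 CPM at ZT6 and 211 to 260.2 CPM at ZT18. Between ZT10 and ZT14 the list medians were 1.37 for SCN, -1.04 for oligodendrocyte, -0.56 for astrocyte and -0.26 for endothelial markers. The part of these markers in the other results was not tested.

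Lists of markers from outside the nucleus had 0 to 2 members called. Those of neighbouring hypothalamic neurons had 0 of 13 higher at ZT6 and 2 at ZT18 (15.4%, against 12% of all tested genes). Their sums were 109.8 to 143 CPM at ZT6 and 146 to 256 CPM at ZT18, so every midnight pool lay above every midday pool here too. Markers of telencephalic neurons summed to 91.6 to 159.9 and 117 to 237 CPM. Of these, 1 of 9 was called (11.1%), *Neurod6*, higher at ZT18 (-3.47 ± 0.85 SE, adjusted p = 0.0084). None of the 10 microglial, 4 blood or 8 choroid plexus and meningeal markers was called in edgeR. At an unadjusted p under 0.05 these lists had 4, 0 and 2 members, and DESeq2 called 0, 0 and 2. Of the ependymal markers 1 of 9 was higher at ZT6. Of 8 general neuronal markers 2 were higher at ZT18. Single pools stood apart. *Ttr*, the main transcript of choroid plexus, measured 62.7, 2679 and 11.6 CPM at ZT6 and 14.8, 10.9 and 18.3 CPM at ZT18, so ZT6 replicate B carried far more of it. The skeletal muscle genes *Ckm* and *Myl1*, chosen after their values were seen, measured 105, 0.0947 and 0.0473 CPM at ZT6 and 0.0640, 0.161 and 0.183 CPM at ZT18 and 91.7, 0 and 0 CPM at ZT6 and 0.192, 0.899 and 0 CPM at ZT18. Both were confined among these 6 pools to ZT6 replicate A at more than 1 CPM, and without it their log2 differences were -0.87 and -6.31.

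Differences 12 hr apart resembled those 4 hr apart. Across 11198 genes of 5 CPM or more, ZT6 minus ZT18 and ZT10 minus ZT14 had Pearson's r = 0.65, as a description in which genes are not independent and no pool is shared. Of the called genes 90.8% had a ZT10 minus ZT14 difference in the same direction, against 69.8% of all tested genes. Genes called higher at ZT6 had a median of 0.83 between ZT10 and ZT14, and genes called higher at ZT18 one of -0.81. Of the 117 called genes named here, the 10 with the opposite direction were the 5 predicted genes on chromosomes 2 and 9, *Fosl2*, *Rpl7l1*, *Myl1*, *AU021092* and *Sox10*. In the 5 predicted genes this direction is uncertain, since the SD at ZT10 exceeded the mean. Time of day and the set of libraries cannot be told apart in this likeness.

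**Figure D5:**
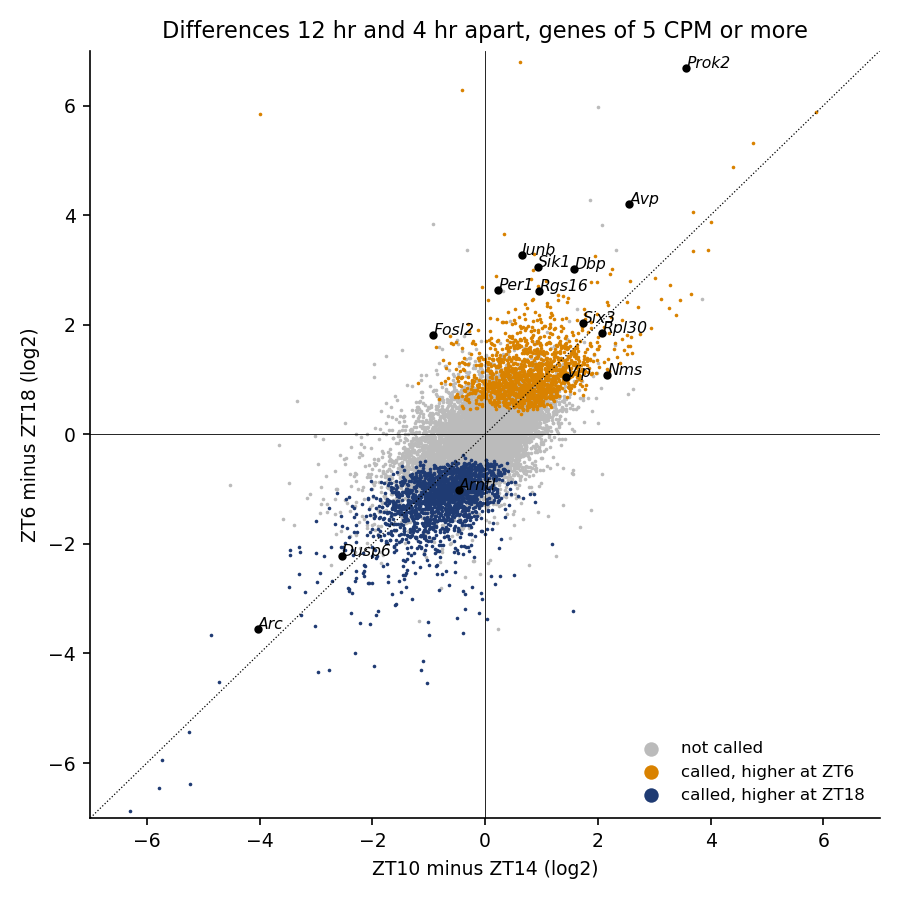
Log2 difference of ZT6 minus ZT18 against that of ZT10 minus ZT14 for genes of 5 CPM or more, with genes called in the first difference in orange (higher at ZT6) and blue (higher at ZT18). The dotted line marks equal differences, and 15 genes past 7 on either axis are not drawn. Most called genes lie in the quadrants where both differences have the same sign, and *Fosl2* is one that does not.

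The difference of the differences asks which genes changed between midday and midnight in a way that the other pair did not share. In edgeR 2 of 18941 genes passed (0.0106%), with 2584 at an unadjusted p under 0.05, and DESeq2 called 523. *Fosl2*, an AP-1 factor related to *Fos*, measured 40.1, 38.7 and 23.9 CPM at ZT6 and 7.55, 8.83 and 12.9 CPM at ZT18 in the single pools. Its means were 34.2 ± 9.01 CPM at ZT6, 9.77 ± 2.81 CPM at ZT18, 8.58 ± 2.06 CPM at ZT10 and 16.2 ± 1.27 CPM at ZT14 (SD, n = 3), a difference of differences of 2.73 ± 0.42 (SE, adjusted p = 0.048). The gene was highest at ZT6, and higher at ZT14 than at ZT10, so its paired differences had opposite signs. *AU021092*, a gene below the level needed to be named by the rule, was the other, with 0, 0 and 0.0473 CPM at ZT6, 5.60, 5.88 and 1.16 CPM at ZT18 and means of 4.62 CPM at ZT10 and 4.19 CPM at ZT14. Neither call held with upper-quartile or size-factor scaling or with recovered reads, where no gene passed in edgeR, and neither held with a replicate block (adjusted p = 0.073 for both). Without ZT6 replicate A 96 genes passed, and none passed when any 1 pool of ZT14 was left out.

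Clock, peptide and activity genes other than *Fosl2* gave differences of differences that did not pass the test. The values were 2.39 ± 0.41 (SE, adjusted p = 0.062) for *Per1*, 1.54 ± 0.40 (SE, adjusted p = 0.13) for *Per2* and 1.44 ± 0.34 (SE, adjusted p = 0.12) for *Dbp*. They were 3.11 ± 0.67 (SE, adjusted p = 0.088) for *Prok2*, 1.64 ± 0.43 (SE, adjusted p = 0.13) for *Avp* and 2.10 ± 0.41 (SE, adjusted p = 0.075) for *Sik1*. Those of *Rpl30* and *Arc* were closer to 0, at -0.23 ± 0.23 (SE, adjusted p = 0.71) and 0.48 ± 0.70 (SE, adjusted p = 0.83). Against ZT10 and ZT14, *Per1* stood at 70.0 ± 27.9 CPM at ZT6, 36.6 ± 7.04 CPM at ZT10, 31.0 ± 1.95 CPM at ZT14 and 11.4 ± 2.87 CPM at ZT18. *Avp* went from 454 ± 24.0 CPM and 322 ± 76.8 CPM at ZT6 and ZT10 to 54.5 ± 13 CPM and 24.8 ± 3.68 CPM at ZT14 and ZT18.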

How the data were processed

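RNA from SCN tissue was measured in 18 pools at 6 timepoints. The authors aligned the paired reads with GSNAP to the mouse genome (mm10, GRCm38) and counted them per Ensembl gene with HTSeq 0.5.4p1, and deposited these raw counts together with a table of DESeq2-normalized signal, counts divided by a size factor per library. Whole reads were recovered from that normalized signal (100% of values above 0 were whole multiples of a step per column, within 0.1 of a step) and used as an alternative only, since at ZT6 and ZT10 the deposited tables differ. Groups came from the sample labels. All 18 pools were fitted in edgeR 4.0.16 (R 4.3.3) with TMM scaling, timepoint means and a quasi-likelihood test, with a minimum of 1 read in over 6 pools, and p-values were adjusted over all tested genes by Benjamini-Hochberg at 0.05. No pair of pools of a timepoint agreed within sampling noise. DESeq2 1.42.0, other scalings and filters, a replicate block, the 6 pools alone and leaving out each pool were alternatives. The fits were tested on simulated counts in which 200 of 18941 genes were changed. Fold sizes and directions were recovered, but not every changed gene was called. Called were 0% of genes changed 1.5-fold, 26% of genes changed 2-fold, 74% of genes changed 4-fold and 72% of genes changed 8-fold. With so few genes changed, the adjusted threshold is stricter than in the real data, where 3921 genes passed. These shares are therefore not the sensitivity of the comparison. Named genes were all core clock genes, members of the lists needed to describe them, the 10 highest and 10 lowest called genes of at least 5 CPM without overlap and called in both tables, genes called in the difference of differences, and up to 3 called genes a side with at most 3 reads in each pool of the other. Some genes that the rule names are not reported here. The lists and the comparison were chosen with earlier results of these data known. Whether counting used strand was not given in the sources used here, so overlapping and duplicated genes are uncertain.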

Additional observations from a re-analysis of the deposited data

How the results depend on the processing

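The count of genes differing between ZT6 and ZT18 stayed within 1.5 times of 3921 under the other scalings and filters, with recovered reads (4942), with genes of both tables only, with the block and with DESeq2's Wald test (5194, of which 2493 were higher at ZT6). Leaving out 1 pool gave 2777 (without ZT18 replicate A) to 4345 (without ZT18 replicate C), with 1180 to 1741 genes higher at ZT6 and 1584 to 2604 higher at ZT18. It fell to 839 (475 and 364) with the 6 pools alone and was 2608 for differences of at least 1. Leaving out pseudogenes and the 3 runs of neighbouring genes, an alternative chosen after seeing the data, gave 3555. Of 117 named genes called, 109 passed without any 1 of the 6 pools, and 83 passed with the 6 alone. Calls were gained by *Cry2* and *Clock*, as given above, and by *Ttr* (adjusted p = 0.049 with at least 10 counts in every pool, 0.027 with no filter and 0.0079 with DESeq2). Not called with the 6 alone were *Arntl*, *Per3*, *Cry1*, *Nr1d2*, *Ciart*, *Csnk1e*, *Wee1*, *Tsc22d3*, *Pam*, *Oprl1*, *Jun*, *Crem*, *Rgs5*, *Rgs14*, *Kcnn2*, *Kcnab1*, *Cacnb2*, *Gria3*, *Gabra4*, *Nsf*, *mt-Nd4l*, *Psmd2*, *Rbm3*, *Pkm*, *Eno2*, *Gm12843*, *Creb3l1*, *Krt18*, *Ckm*, *Myl1*, *Mbp*, *Cldn5*, *Neurod6* and *Sox10*.

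Same-lettered pools of ZT6 and ZT18 deviated together weakly at most (r = 0.073, -0.0031 and 0.079 for A, B and C), so letters were not taken to pair them. Pools of unlike letters gave -0.085 to 0.042, below the values of A and of C. Replicate C resembled its fellows least, with r of log2 levels of 0.901 to 0.907 against 0.934 (ZT6) and 0.955 (ZT18) between A and B. A fit with the replicate block called 3654 genes, 3510 of them among the 3921, and it ended the calls of *Ckm* and *Myl1* among the named genes. In the difference of differences it called 2 genes, neither of them *Fosl2* or *AU021092* (adjusted p = 0.073 for both). They were *Per1* (2.39, adjusted p = 0.040) and a gene with no symbol in the tables used here.

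The difference of differences rested on its settings, with 0 genes with size factors, upper-quartile scaling or recovered reads, where 2631, 2609 and 2727 genes were at an unadjusted p under 0.05. It gave 1 gene with at least 10 counts in every pool, 39 with no filter, 523 with DESeq2 and 0 to 96 when 1 pool was left out, with 96 without ZT6 replicate A, 8 without ZT6 replicate B, 10 without ZT10 replicate C and, of the ZT18 pools, 5 without replicate C. For genes with up to 1 kb of exon the median was 0 over tested genes and 0.48 with at least 10 counts in every pool. Recovered reads gave -0.22 for the latter genes.

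Signs turned with recovered reads for *Rps27* (-7.17), *mt-Nd4l* (-0.18) and *Gm8973* (-0.12), and without ZT6 replicate A for *Ckm* (-0.87, where the fits without 1 pool reached 8.60) and *Myl1* (-6.31, where they reached 8.00). List medians close to 0 turned too. With size factors they were 0.044 for clock output, 0.019 for glutamate receptors, 0.059 for GABA genes and 0.075 for chaperones of the endoplasmic reticulum. With upper-quartile scaling the same lists gave 0.087, 0.072, 0.10 and 0.13, and blood markers 0.024. With recovered reads clock output gave 0.14, GABA genes 0.15, chaperones of the endoplasmic reticulum 0.18, the proteasome -0.012 and blood markers 0.27. The causes were not tested.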

Other observations

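A further pair of genes, chosen after their values were seen, showed little spread between pools beside a large difference. *Tacc1*, a centrosome protein, measured 69.5, 66.6 and 77.3 CPM at ZT6 and 245, 308 and 296 CPM at ZT18, a log2 difference of -1.99 ± 0.20 (SE, adjusted p = 7.1e-06). *Armh4*, a membrane protein, measured 43.5, 44.9 and 41.8 CPM at ZT6 and 186, 157 and 152 CPM at ZT18, a log2 difference of -1.93 ± 0.16 (SE, adjusted p = 9.3e-07). *Iltifb*, a cytokine gene with a near-identical neighbour, measured 1.78, 0.805 and 1.99 CPM at ZT6 and 20.1, 15.6 and 55.5 CPM at ZT18, a log2 difference of -4.31 ± 0.51 (SE, adjusted p = 3.8e-05), and reads may be divided between the copies.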
